A study of Mus musculus with 30 samples.

Results

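The 10 chemokine genes described here are Cxcl1, Cxcl12, Cxcl13, Cxcl16, Ccl2, Ccl5, Ccl6, Ccl9, Ccl24, and Cx3cl1, which were taken by gene symbol from the 55335 genes counted in mouse liver. All 10 had a row in the count table and all are annotated as protein coding. Liver RNA from 30 male mice, 5 in each of 6 groups, was sequenced as poly(A)-selected, strand-specific libraries with 1 library per mouse. The mice were 7 to 10 weeks old and on an albino C57BL/6J background. They were wild-type, homozygous for a knock-in that replaces 1 cysteine of Keap1 by serine in every cell (C151S, made with CRISPR-Cas9), or Nrf2-knockout in every cell. Each mouse received 1 oral dose of vehicle (DMSO, Cremophor-EL, and PBS) or of 30 µmol/kg CDDO-Me in that vehicle, and livers were taken 24 hours later. CDDO-Me (bardoxolone methyl) is an electrophilic triterpenoid that modifies KEAP1, the adaptor that marks the transcription factor NRF2 for degradation, and the cysteine replaced in C151S mice is its sensor. The comparisons ask whether each chemokine gene differed after CDDO-Me, whether it differed between genotypes, and whether the genotypes differed in their response.

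Chemokines are small secreted or membrane-anchored proteins that guide leukocytes through G protein-coupled receptors, and they are classed as CXC, CC, or CX3C by the spacing of their first cysteines. In the liver they are made by hepatocytes, sinusoidal endothelial cells, stellate cells, and Kupffer cells, the resident macrophages. CXCL1 attracts neutrophils through CXCR2, CCL2 attracts monocytes through CCR2, CCL5 attracts T cells and NK cells, and CCL24 attracts eosinophils through CCR3. CXCL12 and CXCL13 are homeostatic chemokines that hold CXCR4-bearing cells and CXCR5-bearing B cells in place. CXCL16 and CX3CL1 are made as membrane-bound proteins and are cut free by the proteases ADAM10 and ADAM17. NF-kB induces many chemokine genes, and NRF2 activates genes through antioxidant response elements.

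The promoters of Cxcl1 and Cxcl13 are shown because these genes bear on the comparisons with CDDO-Me and hold letters of a searched motif. The stretches are the 250 bases before the RefSeq start (GRCm38.p6), 5′ to 3′ on the gene's strand. Both strands were searched for the consensus NF-kB site and for TGACNNNGC, the core of the antioxidant response element, and matches are in capitals.
Cxcl1, chr5:90890995-90891244, plus strand: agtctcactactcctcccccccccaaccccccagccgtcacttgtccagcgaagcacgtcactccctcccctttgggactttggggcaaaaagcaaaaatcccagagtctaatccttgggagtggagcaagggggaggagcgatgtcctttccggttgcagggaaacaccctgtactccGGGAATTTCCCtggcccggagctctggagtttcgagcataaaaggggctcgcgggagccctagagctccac
Cxcl13, chr5:95956689-95956938, plus strand: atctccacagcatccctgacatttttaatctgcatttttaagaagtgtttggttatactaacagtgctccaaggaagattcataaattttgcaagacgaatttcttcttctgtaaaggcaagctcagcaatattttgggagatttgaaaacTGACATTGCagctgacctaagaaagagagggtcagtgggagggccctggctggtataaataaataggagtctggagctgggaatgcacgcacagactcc
The Cxcl1 stretch held 2 overlapping NF-kB matches, 1 per strand, which began at -71 and -70 counted from the start. The Cxcl13 stretch held no NF-kB match and 1 antioxidant response element match beginning at -99. Of the 10 genes 6 had a RefSeq promoter entry. The NF-kB consensus stood in 2 of these 6, Cxcl1 and Ccl9, against 7.01% of 27025 promoters of the same length, and the antioxidant response element letters in 1 of the 6, against 10.1%. These matches are letters in a window and no binding was measured.

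The libraries held 23667068 to 42073169 counts on genes with a median of 33229925. The target gene Nqo1, an NRF2-dependent quinone reductase, averaged 7.20 CPM (counts scaled to a common library size) with vehicle and 64.3 with CDDO-Me in wild-type livers, 6.70 and 7.05 in C151S livers, and 1.96 and 2.55 in Nrf2-knockout livers. Nfe2l2, which encodes NRF2, averaged 66.1 CPM in vehicle wild-type and 35.1 CPM in vehicle Nrf2-knockout livers. Gene counts cannot show the C151S codon, nor which exons of Nfe2l2 were left. Hepatocyte transcripts led every library, with Alb at a mean of 83100 CPM. Among the 20 mutant libraries 11 stood apart with a low level of the clock gene Arntl (-1.15 to 0.90 log2 CPM), whereas the other 19 libraries, including all 10 wild-type ones, had 2.52 to 4.79 log2 CPM. The low-Arntl libraries were 2 of 5 vehicle C151S, 3 of 5 CDDO-Me C151S, 3 of 5 vehicle Nrf2-knockout, and 3 of 5 CDDO-Me Nrf2-knockout mice. They are marked in the plots by mouse, and values without them are given below where a call changed. In bulk liver, fewer cells of a type and less RNA per cell cannot be told apart.

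The 10 genes spanned more than 2 orders of magnitude. Per kilobase of exon, the mean level over the 30 livers was 39.5 CPM for Cxcl12, 24.8 for Ccl9, 9.80 for Cxcl1, 2.79 for Cxcl16, 2.56 for Ccl6, 1.27 for Ccl5, 1.23 for Ccl24, 0.939 for Cxcl13, 0.308 for Ccl2, and 0.163 for Cx3cl1. Cxcl16 varied least from mouse to mouse, with 1.94-fold between the lowest and the highest liver, followed by Cxcl12 with 2.17-fold, Ccl9 with 2.64-fold, and Ccl6 with 2.72-fold. The range was 25.8-fold for Cxcl1 and 45.5-fold for Cxcl13, whose lowest liver had 2 counts. A gene was taken as too low to measure in a group where at least 3 of the 5 livers had 3 counts or fewer, and no gene met this in any group. Ccl2 came closest, with 3 livers at 3 counts or fewer and 14 of the 30 under 10 counts, and it was too low to test in the 5 comparisons of 2 groups that include wild-type mice. Cxcl13 had 2 livers under 10 counts, and Ccl5 and Cx3cl1 had 1 each. The plot of levels per kilobase shows this order.

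**Figure D1:**
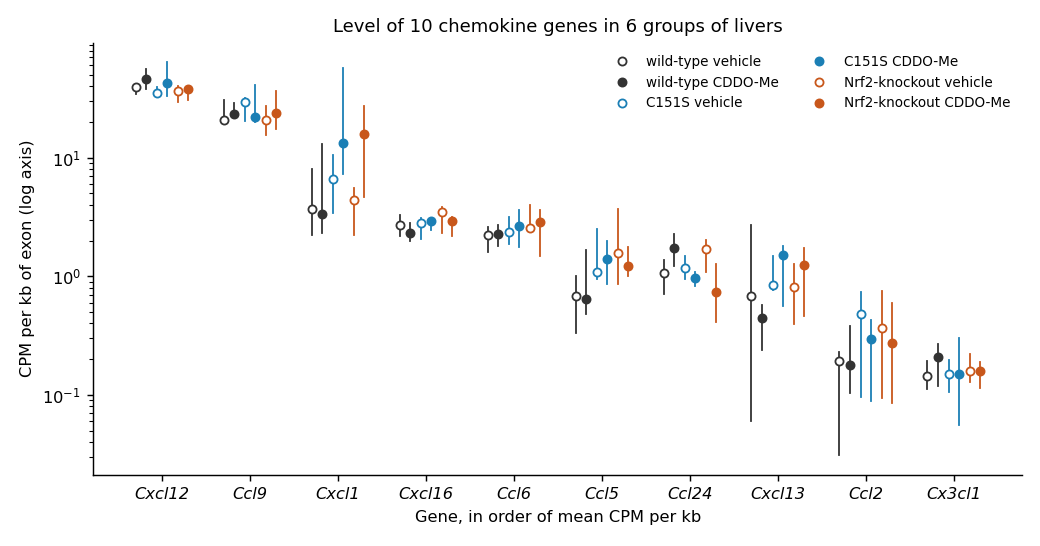
Level of each chemokine gene in CPM per kilobase of exon (log axis), in order of the mean over 30 livers. Points are group medians and lines run from the lowest to the highest of 5 mice, with open symbols for vehicle and filled symbols for CDDO-Me. Cxcl12 and Ccl9 lead with means of 39.5 and 24.8, and the lines of Cxcl1, Cxcl13, and Ccl2 are the longest.

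Over all 6 groups, 4 of the 10 genes differed at an adjusted p under 0.05 in 1 test of any difference (edgeR quasi-likelihood F-test, p adjusted over 15010 genes), where 28.9% of all genes did. They were Cxcl1 (adjusted p = 0.00108), Ccl24 (0.00727), Ccl5 (0.0305), and Cxcl12 (0.0406). Cxcl1 and Ccl24 passed whichever of the 30 livers was left out and Ccl5 passed in 27 of 30, the exceptions being vehicle wild-type replicates 4 and 5 and CDDO-Me wild-type replicate 2 (highest adjusted p = 0.0588). Cxcl12 passed in 14 of 30 and reached 0.111, and its call was also lost without a filter on low counts (0.0861). The adjusted p was 0.106 for Cxcl16 (0.0270 with the Arntl set as a covariate), 0.228 for Cxcl13, 0.233 for Ccl2, 0.382 for Ccl9, 0.508 for Ccl6, and 0.721 for Cx3cl1.

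CDDO-Me was then compared with vehicle within each genotype, and a gene was called when its adjusted p was under 0.05 and its log2 fold change was 0.5 or more in either direction. In wild-type livers edgeR called 0 of the 9 chemokine genes tested, against 2.75% of all genes. Of these 9 genes 2, Cxcl12 and Ccl24, had an unadjusted p under 0.05, and DESeq2 called 1, Ccl24. In C151S livers edgeR and DESeq2 each called 0 of 10, against 0.0920% of all genes by edgeR, and Cxcl1 alone had an unadjusted p under 0.05. In Nrf2-knockout livers edgeR called 0 of 10, against 0% of all genes, and DESeq2 called 1, Cxcl1. There Cxcl1 and Ccl24 had an unadjusted p under 0.05, as did 1136 of all genes by edgeR, and DESeq2 called 53 of all genes. The median log2 fold change of the tested chemokine genes was 0.21 in wild-type, 0.03 in C151S, and -0.13 in Nrf2-knockout livers, and that of all genes was -0.01 in each. The plot of log2 fold changes gives the 3 estimates for each gene, which lay farthest apart for Ccl24, Cxcl1, and Cxcl13.

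**Figure D2:**
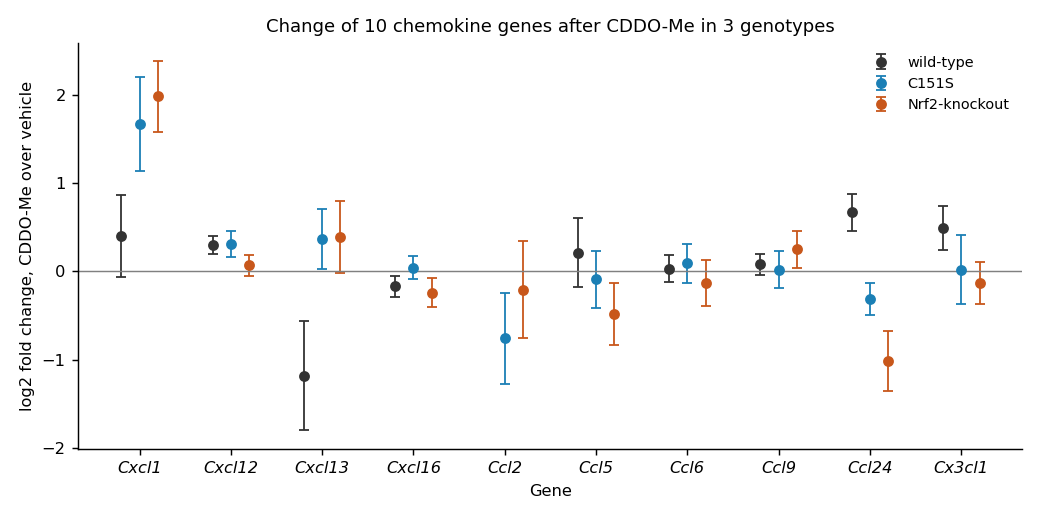
Log2 fold change of each chemokine gene, CDDO-Me over vehicle, in wild-type, C151S, and Nrf2-knockout livers, with 5 mice per group. Points are edgeR estimates and bars are standard errors. Ccl2 was too low to test in wild-type livers. Ccl24 runs from 0.67 in wild-type through -0.31 in C151S to -1.01 in Nrf2-knockout livers, Cxcl1 from 0.40 through 1.67 to 1.98, and Cxcl13 from -1.18 through 0.37 to 0.39.

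Cxcl1 (ENSMUSG00000029380.11, GRCm38 chr5:90891241-90893115, plus strand) encodes a neutrophil attractant that hepatocytes and endothelial cells make under stress. In vehicle wild-type mice its level was 8.17, 4.15, 6.92, 15.0, and 6.18 CPM, and in CDDO-Me wild-type mice 6.30, 4.33, 5.71, 12.4, and 24.6 CPM. The ranges overlapped, and 4 of the 5 treated livers lay within the vehicle range. It was 12.4, 11.1, 19.9, 6.37, and 13.8 CPM in vehicle C151S mice, and in CDDO-Me C151S mice it was 107, 39.5, 25.1, 13.7, and 17.6 CPM. Of the treated C151S livers 3 lay above every vehicle C151S liver, and replicate 1 lay far above the others. It was 10.5, 6.81, 8.32, 4.19, and 8.49 CPM in vehicle Nrf2-knockout mice, and in CDDO-Me Nrf2-knockout mice it was 20.6, 42.7, 51.0, 8.72, and 29.7 CPM. Here 4 of the 5 treated livers lay above every vehicle liver of the genotype, and replicate 4 did not.

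The log2 fold change of Cxcl1 with CDDO-Me was 0.40 ± 0.46 (SE, n = 5 per group) in wild-type livers, with an adjusted p of 0.730 by edgeR. In C151S livers it was 1.67 ± 0.53 (3.17-fold, edgeR adjusted p = 0.347), and without replicate 1 of the treated mice it was 0.90 (adjusted p = 0.488). In Nrf2-knockout livers it was 1.98 ± 0.40, or 3.95-fold, and its unadjusted p of 3.7e-04 by edgeR gave an adjusted p of 0.299 over 14474 genes. DESeq2 gave an adjusted p of 3.1e-04 for the same livers, and the other alternatives reached 0.364. The difference in response between wild-type and Nrf2-knockout livers was -1.59 ± 0.73 (edgeR adjusted p = 0.763) and that between wild-type and C151S livers was -1.27 ± 0.73 (adjusted p = 0.681). So the genotypes were not shown to differ in their Cxcl1 response.

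Among CDDO-Me mice, Cxcl1 was 1.95 ± 0.62 log2 units higher in C151S than in wild-type livers (edgeR adjusted p = 0.0821) and 1.54 ± 0.52 higher in Nrf2-knockout than in wild-type livers (0.0739). Neither was called. With C151S the adjusted p was 0.0444 by DESeq2, 0.0454 without a filter on low counts, 0.0183 in 1 fit of all 30 livers, and 0.151 with the replicate number as a block. So 3 of 7 alternatives called it, as did 1 of 10 fits that left out 1 liver. With Nrf2-knockout the adjusted p was 0.0356 without a filter and 0.0478 in 1 fit of all 30 livers, the 2 of 7 alternatives with a call. In the others it reached 0.117 by edgeR or DESeq2, and 2 of 10 fits that left out 1 liver gave the call. In order of group means, CDDO-Me C151S (40.6 ± 38.5 CPM, SD) and CDDO-Me Nrf2-knockout (30.5 ± 16.9) came first and differed from each other by less than their SD. A gap larger than either SD separated CDDO-Me Nrf2-knockout from the next group, vehicle C151S (12.7 ± 4.90), and the remaining groups, at 7.66 to 12.7 CPM, followed without such a gap.

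**Figure D3:**
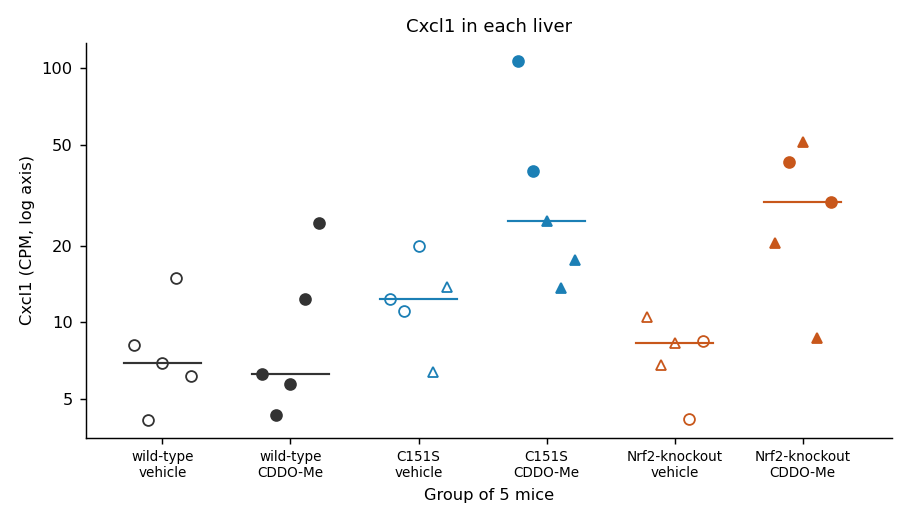
Cxcl1 in each liver in CPM (log axis), 5 mice in each of 6 groups. Open symbols are vehicle and filled symbols CDDO-Me, triangles are livers with low Arntl, and horizontal lines are group medians. The CDDO-Me C151S and CDDO-Me Nrf2-knockout medians are 25.1 and 29.7 CPM, against 6.92 and 6.30 CPM in the wild-type groups.

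Neutrophil transcripts were measured beside Cxcl1. Of 7 neutrophil markers 3 or 4 were tested in each comparison, and Ly6g had 3 counts or fewer in every library. Their summed level was 2.13 to 3.82 CPM in vehicle wild-type, 2.31 to 5.01 in CDDO-Me wild-type, 1.46 to 5.95 in vehicle C151S, 2.29 to 20.7 in CDDO-Me C151S, 2.46 to 10.9 in vehicle Nrf2-knockout, and 2.36 to 11.1 in CDDO-Me Nrf2-knockout livers. S100a8 was called higher after CDDO-Me in wild-type livers, with a log2 fold change of 1.69 ± 0.38 (edgeR adjusted p = 0.0235), a comparison in which Cxcl1 was not called. It was the 1 marker called of 3 tested there, against 2.75% of all genes. Among vehicle mice, S100a8 (2.22 ± 0.55, 0.0200) and S100a9 (1.78 ± 0.49, 0.0321) were called higher in Nrf2-knockout than in wild-type livers, where the log2 difference of Cxcl1 was -0.06 ± 0.31 (edgeR adjusted p = 0.910). These were 2 of 3 markers tested there, against 10.4% of all genes. Both genes were low, with means over all livers of 0.914 CPM for S100a8 and 1.67 CPM for S100a9. The liver with the highest Cxcl1, CDDO-Me C151S replicate 1, also had the highest neutrophil sum of its group (20.7 CPM, the others 2.29 to 7.96), the highest Cxcl12 (521 CPM), and the lowest hepatocyte marker sum of its group (64000 CPM, the others 87200 to 148000). The part of these in the Cxcl1 level was not tested. Cxcr2, the receptor for CXCL1, had a mean of 0.0543 to 0.401 CPM in the 6 groups, and all 5 vehicle wild-type libraries were at 3 counts or fewer.

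Ccl24 (ENSMUSG00000004814.10, GRCm38 chr5:135569937-135573049, minus strand) encodes eotaxin-2, made by macrophages including Kupffer cells. It was 1.58, 0.926, 1.39, 1.26, and 1.77 CPM in vehicle wild-type mice, and in CDDO-Me wild-type mice it was 1.92, 2.94, 2.36, 1.58, and 2.24 CPM. Of the treated wild-type livers 4 lay above every vehicle wild-type liver. It was 1.91, 1.23, 1.51, 1.69, and 1.37 CPM in vehicle C151S mice, and in CDDO-Me C151S mice it was 1.08, 1.25, 1.41, 1.13, and 1.35 CPM. It was 2.22, 1.40, 2.63, 1.98, and 2.46 CPM in vehicle Nrf2-knockout mice, and in CDDO-Me Nrf2-knockout mice it was 0.531, 0.629, 0.958, 1.60, and 1.65 CPM. Of the treated Nrf2-knockout livers 3 lay below every vehicle liver of the genotype, the opposite side from wild-type.

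Ccl24 was the 1 chemokine gene whose response to CDDO-Me differed between genotypes. The difference in log2 fold change between wild-type and Nrf2-knockout livers was 1.68 ± 0.36 (SE), a 3.21-fold ratio of the 2 effects, with an adjusted p of 0.0263 by edgeR over 15010 genes. In that test 1 of 10 chemokine genes was called, against 0.266% of all genes. The log2 fold change itself was 0.67 ± 0.21 in wild-type (edgeR adjusted p = 0.101) and -1.01 ± 0.34 in Nrf2-knockout livers (0.547), so that neither change was called alone by edgeR. DESeq2 called the wild-type change (0.0466). The difference passed in all 5 alternatives, with adjusted p from 9.2e-04 to 0.0439, and with the Arntl set as a covariate it was 1.68 (0.0226). Leaving out each of the 30 livers in turn kept the call in 20 and gave log2 differences of 1.51 to 1.90. The call was lost, with adjusted p from 0.0501 to 0.0726, without vehicle wild-type replicate 2, 3, or 4, CDDO-Me wild-type replicate 2, 3, or 5, vehicle Nrf2-knockout replicate 3 or 5, or CDDO-Me Nrf2-knockout replicate 2 or 3.

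In C151S livers the log2 fold change of Ccl24 was -0.31 ± 0.18 (edgeR adjusted p = 0.442). Its difference from the wild-type response was 0.98 ± 0.36 (adjusted p = 0.450) and from the Nrf2-knockout response 0.70 ± 0.36 (0.943). For the difference between wild-type and C151S, edgeR called 0 of 10 chemokine genes, against 0.480% of all genes, and DESeq2 called 0, with Cxcl13 and Ccl24 at an unadjusted p under 0.05. For the difference between C151S and Nrf2-knockout, edgeR and DESeq2 called 0 of 10, against 0.0133% of all genes by edgeR, and no chemokine gene had an unadjusted p under 0.05.

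Among CDDO-Me mice, Ccl24 was lower in C151S than in wild-type livers by a log2 fold change of -0.81 ± 0.19 (1.75-fold, edgeR adjusted p = 0.0301). All 5 C151S livers, at 1.08 to 1.41 CPM, lay below all 5 wild-type livers, at 1.58 to 2.94 CPM. Of the 10 chemokine genes 1 was without overlap in this way, against 4.70% of 15010 genes. The call was lost without the low-Arntl livers (-0.90, adjusted p = 0.172) and without any of wild-type replicates 1, 2, or 3 or C151S replicates 4 or 5 (0.0510 to 0.0770). The log2 difference in Nrf2-knockout from wild-type livers was -1.03 ± 0.33 (edgeR adjusted p = 0.0616), with 0.0137 by DESeq2, 0.0486 without a filter, and 0.00503 in 1 fit of all 30 livers. These were 3 of 7 alternatives, and in the others the edgeR adjusted p reached 0.196. Leaving out 1 liver at a time gave the call in 2 of 10 fits. Among vehicle mice the log2 difference in Nrf2-knockout from wild-type livers was 0.65 ± 0.22 (edgeR adjusted p = 0.0667, DESeq2 0.0400). DESeq2 was the 1 of 7 alternatives with a call, the edgeR adjusted p reached 0.116, and 1 of 10 leave-one-out fits gave the call. Comparisons at the same treatment share the wild-type livers, and the responses share them too.

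Kupffer cell and eosinophil markers were measured beside Ccl24. With CDDO-Me in Nrf2-knockout livers, 0 of 10 Kupffer cell markers were called by edgeR or DESeq2, none had an unadjusted p under 0.05, and their median log2 fold change was -0.38. In wild-type livers the same counts were 0 and the median was -0.20. The summed level of the 10 markers was 179 to 426 CPM in vehicle and 242 to 362 in CDDO-Me wild-type livers. It was 246 to 475 in vehicle and 267 to 497 in CDDO-Me C151S livers. In Nrf2-knockout livers it was 268 to 579 with vehicle and 204 to 444 with CDDO-Me. Among CDDO-Me mice 2 of the 10 were called between C151S and wild-type livers, against 5.0% of all genes. The median log2 fold change over the 10 was 0.38. Marco, a macrophage scavenger receptor, was lower (log2 fold change -1.13 ± 0.28, edgeR adjusted p = 0.0345) and C1qc, a complement subunit, was higher (0.51 ± 0.14, 0.0490). Between Nrf2-knockout and wild-type livers 1 of the 10 was called, against 9.44% of all genes. This was Marco, which was lower (-2.14 ± 0.36, 0.00256), and the median over the 10 was 0.19. The part of Kupffer cell content in the Ccl24 result was not tested. The 4 eosinophil markers were too low for edgeR to test in every comparison, with a sum of 0 to 1.00 CPM in any library. DESeq2, run without the edgeR filter on low counts, called 1 of the 4 between vehicle Nrf2-knockout and vehicle wild-type livers. It also called 1 of the 4 in the 6-group test.

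**Figure D4:**
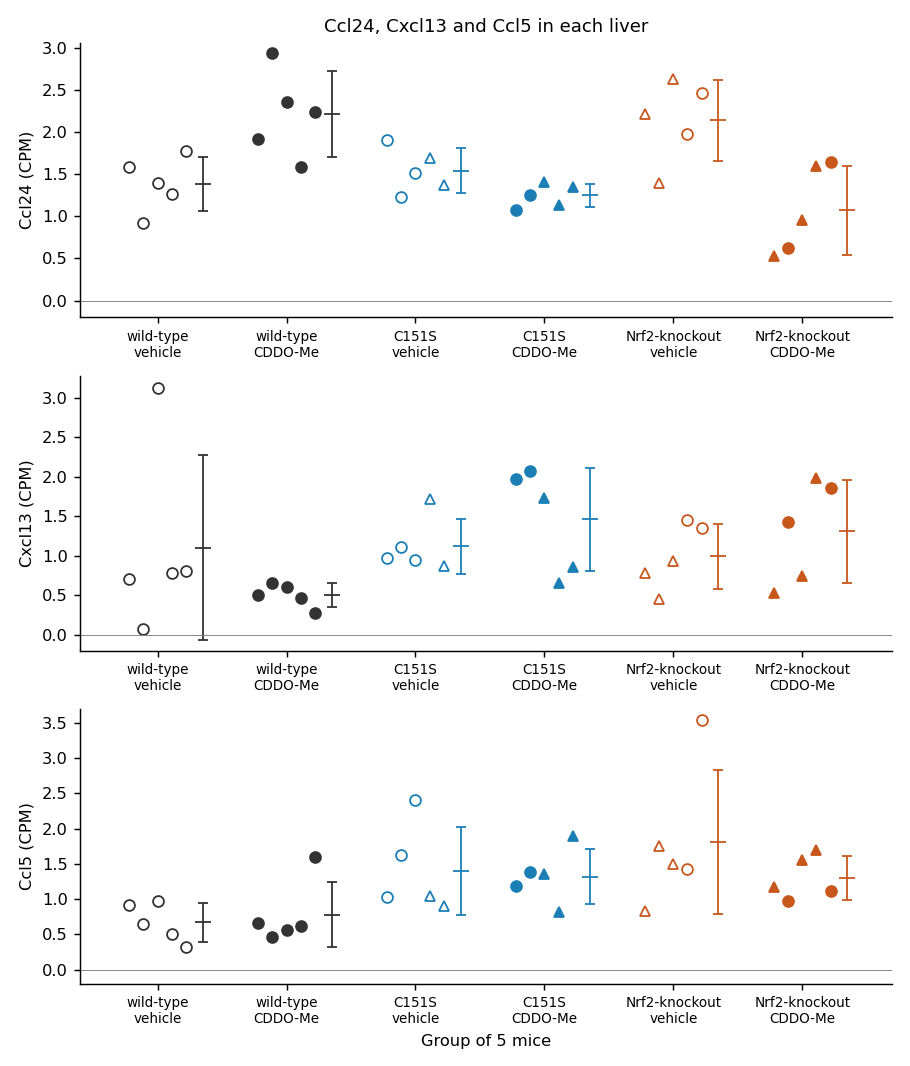
Ccl24, Cxcl13, and Ccl5 in each liver in CPM, 5 mice in each of 6 groups. Open symbols are vehicle and filled symbols CDDO-Me, triangles are livers with low Arntl, and bars beside the points are mean ± SD. The mean of Ccl24 is 2.21 CPM in CDDO-Me wild-type and 1.07 CPM in CDDO-Me Nrf2-knockout livers, and 1 vehicle wild-type liver stands alone in Cxcl13 at 3.12 CPM.

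Cxcl13 (ENSMUSG00000023078.6, GRCm38 chr5:95956951-95961068, plus strand) encodes the B cell attractant. It was 0.703, 0.0686, 3.12, 0.785, and 0.812 CPM in vehicle wild-type mice, and in CDDO-Me wild-type mice it was 0.509, 0.661, 0.599, 0.469, and 0.277 CPM. The vehicle group held both the lowest and the highest of all 30 livers. It was 0.969, 1.11, 0.944, 1.72, and 0.875 CPM in vehicle C151S mice, and in CDDO-Me C151S mice it was 1.97, 2.07, 1.73, 0.650, and 0.862 CPM. It was 0.776, 0.457, 0.934, 1.45, and 1.35 CPM in vehicle Nrf2-knockout mice, and in CDDO-Me Nrf2-knockout mice it was 0.531, 1.43, 0.742, 1.98, and 1.86 CPM. In both mutants 4 of the 5 CDDO-Me livers lay above every CDDO-Me wild-type liver.

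Among CDDO-Me mice edgeR called 2 of the 9 chemokine genes tested between C151S and wild-type livers, Cxcl13 and Ccl24, against 5.0% of all genes. Cxcl13 was higher by 1.55 ± 0.37 log2 units (2.93-fold, edgeR adjusted p = 0.0296). The call was lost in 1 fit of all 30 livers (0.0659) and without wild-type replicate 1, 2, 3, or 4 or C151S replicate 3 (0.0561 to 0.0726), and without the low-Arntl livers the difference was 2.02 (0.0155). Between Nrf2-knockout and wild-type livers edgeR called 1 of 9, Cxcl13, against 9.44% of all genes. It was higher by 1.39 ± 0.39 log2 units (2.62-fold, edgeR adjusted p = 0.0373). The call was lost in 1 fit of all 30 livers (0.0828), with the replicate number as a block (0.0839), and without any wild-type liver or Nrf2-knockout replicate 2, 4, or 5 (0.0538 to 0.0851). Between CDDO-Me C151S and CDDO-Me Nrf2-knockout livers edgeR and DESeq2 called 0 of 10, against 0.162% of all genes by edgeR, and none had an unadjusted p under 0.05.

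The log2 fold change of Cxcl13 with CDDO-Me in wild-type livers was -1.18 ± 0.62 (edgeR adjusted p = 0.369), and it was -0.24 without vehicle replicate 3. Vehicle mutant and vehicle wild-type livers had log2 differences of -0.00 ± 0.52 for C151S (adjusted p = 0.999) and -0.18 ± 0.63 for Nrf2-knockout (0.870). B cell markers, 4 of 4 tested, had a summed level of 2.86 to 5.04 CPM in CDDO-Me wild-type, 0.915 to 3.25 in CDDO-Me C151S, and 1.09 to 3.23 in CDDO-Me Nrf2-knockout livers. EdgeR called 0 of the 4 between either mutant and wild-type among CDDO-Me mice, with 2 at an unadjusted p under 0.05 in each, and DESeq2 called 0 for C151S and 1 for Nrf2-knockout. Their part in the Cxcl13 result was not tested. Cxcr5, the CXCL13 receptor of B cells, had a mean of 0.122 to 0.401 CPM in the 6 groups.

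Ccl5 (ENSMUSG00000035042.2, GRCm38 chr11:83525778-83530518, minus strand) encodes RANTES, made by T cells and NK cells among others. It was 0.922, 0.652, 0.971, 0.502, and 0.318 CPM in vehicle wild-type mice, and in CDDO-Me wild-type mice it was 0.665, 0.463, 0.564, 0.616, and 1.60 CPM. It was 1.03, 1.62, 2.40, 1.04, and 0.903 CPM in vehicle C151S mice, and in CDDO-Me C151S mice it was 1.19, 1.38, 1.35, 0.819, and 1.89 CPM. It was 0.829, 1.76, 1.5, 1.42, and 3.54 CPM in vehicle Nrf2-knockout mice, and in CDDO-Me Nrf2-knockout mice it was 1.17, 0.967, 1.56, 1.70, and 1.12 CPM. Of the 5 vehicle livers of each mutant 4 lay above every vehicle wild-type liver, and the means of the 4 mutant groups, 1.30 to 1.81 CPM, lay above those of both wild-type groups, 0.673 and 0.781 CPM.

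Among vehicle mice edgeR called 1 of 9 chemokine genes between Nrf2-knockout and wild-type livers, Ccl5, against 10.4% of all genes. It was higher by 1.43 ± 0.40 log2 units (2.69-fold, edgeR adjusted p = 0.0335). The call was lost with the replicate number as a block (0.0923) and without wild-type replicate 2, 4, or 5 or Nrf2-knockout replicate 2, 3, or 5 (0.0526 to 0.0806). Between C151S and wild-type vehicle livers edgeR called 0 of 9, against 4.84% of all genes, and DESeq2 called 1, Ccl5, which was the 1 chemokine gene with an unadjusted p under 0.05. Its log2 difference was 1.07 ± 0.36 (edgeR adjusted p = 0.0849), with 0.0336 by DESeq2, 0.0454 with the replicate number as a block, and 0.0215 without the low-Arntl livers, where the difference was 1.35. These were 3 of 7 alternatives, and in the others the edgeR adjusted p reached 0.107. Leaving out 1 liver at a time gave the call in 0 of 10 fits. Between vehicle C151S and vehicle Nrf2-knockout livers edgeR and DESeq2 called 0 of 10, against 0.349% of all genes by edgeR, with 3 (Cxcl1, Ccl9, and Ccl24) at an unadjusted p under 0.05.

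Of 8 T cell and NK cell markers 6 were tested among vehicle Nrf2-knockout and wild-type livers, and 1 of the 6 was called, against 10.4% of all genes. This was Gzma, a cytotoxic granule protease, which was higher in Nrf2-knockout livers, with a log2 fold change of 1.40 ± 0.36 (edgeR adjusted p = 0.0247). The median log2 fold change of the 6 was 0.95. Their summed level was 2.09 to 5.17 CPM in vehicle wild-type, 3.66 to 7.13 in vehicle C151S, and 4.25 to 10.4 in vehicle Nrf2-knockout livers. The part of T cell and NK cell content in the Ccl5 result was not tested.

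Cxcl12 (ENSMUSG00000061353.11, GRCm38 chr6:117168535-117181367, plus strand) was the most abundant of the 10 genes. It was 320, 333, 283, 322, and 284 CPM in vehicle wild-type and 457, 401, 365, 377, and 313 CPM in CDDO-Me wild-type livers. Of the treated wild-type livers 4 lay above every vehicle liver, and the log2 fold change was 0.30 ± 0.10 (1.23-fold, edgeR adjusted p = 0.107). The log2 fold change was 0.31 ± 0.15 in C151S (adjusted p = 0.386) and 0.07 ± 0.12 in Nrf2-knockout livers (0.914). CDDO-Me C151S livers ran from 272 to 521 CPM, vehicle C151S livers from 277 to 325 CPM, and Nrf2-knockout livers from 240 to 327 CPM with vehicle and 252 to 332 CPM with CDDO-Me. No neighbours in the order of the 6 group means, from 288 to 383 CPM, were farther apart than the larger of their SDs. Of the receptors of CXCL12, Cxcr4 was called higher in vehicle C151S than in vehicle wild-type livers (log2 fold change 1.02 ± 0.20, edgeR adjusted p = 0.0108), at means of 1.39 and 0.693 CPM.

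Ccl6 and Ccl9 (GRCm38 chr11:83587882-83593087 and chr11:83572919-83578636, both on the minus strand) are neighbouring genes of macrophage and myeloid chemokines that bind CCR1. Neither was called between any groups. Ccl6 had group means of 3.96 ± 0.679 (vehicle wild-type) to 5.25 ± 1.21 CPM (vehicle Nrf2-knockout), and Ccl9 had group means of 63.9 ± 14.6 (vehicle Nrf2-knockout) to 85.7 ± 28.8 CPM (CDDO-Me C151S). The log2 fold change with CDDO-Me ran from -0.13 to 0.09 for Ccl6 and from 0.02 to 0.25 for Ccl9 in the 3 genotypes. Vehicle wild-type replicate 2 had 93.3 CPM of Ccl9 and the other 4 of its group at most 63.8 CPM.

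Neither membrane-bound chemokine gene was called between any 2 groups by edgeR. Cxcl16 (GRCm38 chr11:70453983-70459984, minus strand) had group means of 7.17 ± 0.925 (CDDO-Me wild-type) to 9.98 ± 1.78 CPM (vehicle Nrf2-knockout). Its largest log2 difference between groups compared was 0.33 ± 0.15 (vehicle Nrf2-knockout against vehicle wild-type, edgeR adjusted p = 0.149). Cx3cl1 (GRCm38 chr8:94772009-94782427, plus strand) had group means of 0.563 ± 0.128 to 0.796 ± 0.226 CPM, the highest in CDDO-Me wild-type livers, whose log2 fold change over vehicle was 0.49 ± 0.25 (edgeR adjusted p = 0.36). The genes of their sheddases, Adam10 and Adam17, averaged 24.3 to 29.3 and 20.1 to 22.8 CPM in the 6 groups. EdgeR and DESeq2 called 0 of these 2 in each of the 12 pairwise and response comparisons, with 1 at an unadjusted p under 0.05 by edgeR in 3 of them.

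Ccl2 (ENSMUSG00000035385.5, GRCm38 chr11:82035571-82037453, plus strand) encodes MCP-1. It ran from 0.0353 to 0.262 CPM in vehicle wild-type (1 to 10 counts), 0.117 to 0.430 in CDDO-Me wild-type, 0.109 to 0.838 in vehicle C151S, 0.102 to 0.485 in CDDO-Me C151S, 0.107 to 0.858 in vehicle Nrf2-knockout, and 0.0967 to 0.671 in CDDO-Me Nrf2-knockout livers. At this depth 3 counts were worth 0.0652 to 0.132 CPM, so that the lowest liver of each group was near the limit of counting. Of the 5 vehicle livers of each mutant 4 lay above every vehicle wild-type liver. Without a filter the log2 difference of vehicle C151S from vehicle wild-type livers was 1.35 (edgeR adjusted p = 0.160). Of 7 monocyte markers 5 were tested between vehicle Nrf2-knockout and vehicle wild-type livers, and 2 were called higher, against 10.4% of all genes, Ly6c2 (log2 fold change 0.99 ± 0.29, edgeR adjusted p = 0.0383) and Plac8 (0.66 ± 0.16, 0.0164). The log2 fold change of Ccl2 with CDDO-Me was -0.76 ± 0.52 in C151S (edgeR adjusted p = 0.506) and -0.21 ± 0.55 in Nrf2-knockout livers (0.940).

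Of 27 other chemokine genes 7 to 10 were tested in each comparison, and 6 (Cxcl5, Ccl20, Cxcl17, Ccl1, Cxcl3, and Cxcl15) had 3 counts or fewer in every library. The most abundant were Cxcl9, Ccl25, and Ccl27a, at means of 13.1, 6.13, and 4.08 CPM. Cxcl9, an interferon-induced T cell attractant, was called higher among vehicle mice in C151S (log2 fold change 1.12 ± 0.21, edgeR adjusted p = 0.00893) and in Nrf2-knockout livers (1.18 ± 0.28, 0.0164) than in wild-type livers. Cxcl10, also induced by interferon, was called higher in vehicle C151S than in vehicle wild-type livers (0.84 ± 0.23, 0.0474). These were 2 of 8 genes tested for C151S, against 4.84% of all genes, and 1 of 8 for Nrf2-knockout, against 10.4%. DESeq2, run without the edgeR filter on low counts, called 4 and 2 of the 27 listed genes. The vehicle wild-type mice are shared. With CDDO-Me against vehicle, edgeR and DESeq2 called 0 of the 8 to 10 genes tested in any genotype, and 0 had an unadjusted p under 0.05.

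Of 23 chemokine receptor genes 10 to 15 were tested, and Ccr8 and Ccr10 had 3 counts or fewer in every library. Ackr2 and Ccrl2 had means of 2.46 and 1.32 CPM. Ackr4, a scavenger of CC chemokines, was called higher in vehicle C151S (log2 fold change 0.82 ± 0.19, edgeR adjusted p = 0.0227), CDDO-Me C151S (1.22 ± 0.33, 0.0479), and CDDO-Me Nrf2-knockout livers (0.97 ± 0.22, 0.0135) than in wild-type livers of the same treatment. Ccrl2, a receptor that binds chemerin without signalling, was called higher in Nrf2-knockout than in wild-type livers with vehicle (1.02 ± 0.22, 0.0107) and with CDDO-Me (0.74 ± 0.20, 0.0282). Between vehicle C151S and wild-type livers 2 of 13 receptors tested, Ackr4 and Cxcr4, were called, against 4.84% of all genes. For vehicle Nrf2-knockout livers it was 1 of 13, against 10.4%. With CDDO-Me it was 1 of 12 for C151S, against 5.0%, and 2 of 13 for Nrf2-knockout livers, against 9.44%. With CDDO-Me against vehicle, edgeR and DESeq2 called 0 receptors in each genotype, with 1 in each at an unadjusted p under 0.05 by edgeR.

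Of 16 inflammatory regulators 12 were tested. Among vehicle mice 4 of the 12 were called higher in Nrf2-knockout than in wild-type livers, against 10.4% of all genes. They were the adhesion molecules Vcam1 (log2 fold change 1.66 ± 0.41, edgeR adjusted p = 0.0206) and Icam1 (0.75 ± 0.14, 0.00574), the NF-kB inhibitor Tnfaip3 (0.96 ± 0.22, 0.0155), and the NF-kB subunit Nfkb2 (0.52 ± 0.11, 0.0123). Vcam1 was also called higher in vehicle C151S livers (1.36 ± 0.14, 7.1e-04), the 1 called of 12 tested there, against 4.84% of all genes. Of the sinusoidal endothelial markers 4 of 6 (Lyve1, Stab2, Gpr182, and Oit3) were called higher in vehicle Nrf2-knockout than in vehicle wild-type livers, against 10.4% of all genes, with a median log2 fold change of 0.69 over the 6. In vehicle C151S livers 2 of 6 (Gpr182 and Fcgr2b) were called higher, against 4.84% of all genes, with a median of 0.52. Their part in these differences was not tested.

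To see which chemokine genes varied together beyond the groups, each liver's log2 CPM was taken as its deviation from the mean of its group, and all 45 pairs of the 10 genes were correlated over the 30 livers. After Benjamini-Hochberg adjustment 2 pairs passed by both coefficients in a permutation test within groups, and both involved Cxcl13. Cxcl13 and Ccl9 ran opposite, with Pearson's r = -0.65 (permutation p = 2.0e-04, adjusted 0.0063) and Spearman's rho = -0.68 (adjusted 0.0198). Cxcl13 and Ccl6 ran together, with r = 0.62 (permutation p = 2.8e-04, adjusted 0.0063) and rho = 0.66 (adjusted 0.0198). Without the 2 livers most extreme in Cxcl13, r was -0.75 with Ccl9 and 0.72 with Ccl6. With the means of the high- and low-Arntl livers removed within each group, r was -0.57 and 0.62. The livers share their depth and cell content, and all values are correlations between mice.

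**Figure D5:**
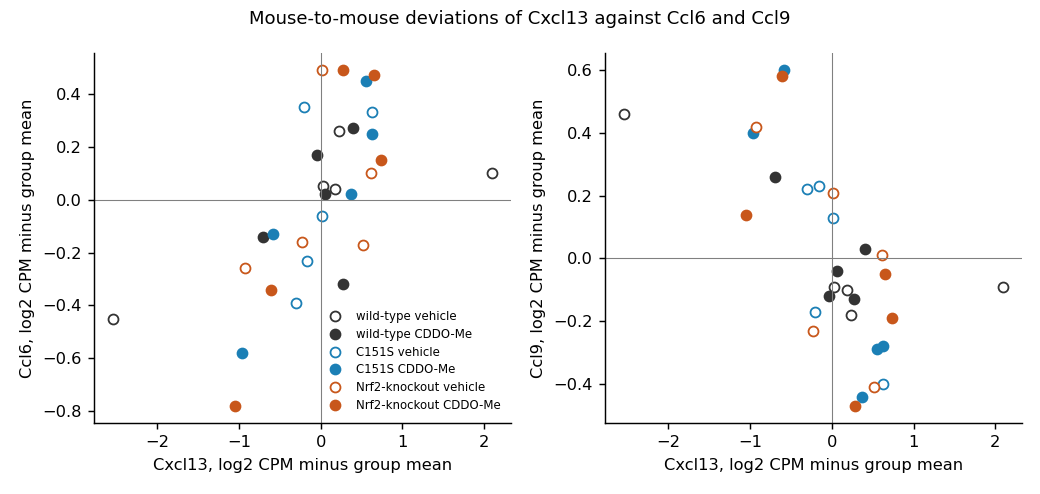
Deviation of each of 30 livers from its group mean in log2 CPM, Cxcl13 on the horizontal axis against Ccl6 (left) and Ccl9 (right), with open symbols for vehicle and filled symbols for CDDO-Me. The points rise with Ccl6 (r = 0.62) and fall with Ccl9 (r = -0.65), and 2 vehicle wild-type livers are the extremes of Cxcl13.

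The genes nearest to each chemokine gene in these deviations, among 15010 genes and over the same 30 livers, are given as a description without a test, since the highest of many values was taken. They were Cd163 for Cxcl13 (r = 0.79) and Folr2 for Ccl24 (0.76), which are both macrophage receptors, and Lgmn, a lysosomal protease, for Ccl6 (0.82). Hcls1, Inpp5d, and Vav1, signalling genes of blood cells, were nearest to Cxcl16 (0.83, 0.81, and 0.81), and Itgb7, a lymphocyte integrin, was nearest to Ccl5 (0.75). Ccl9 was nearest to Echdc3 (0.88), and Cxcl12 to Mocs2 (0.86), Sec63, and Lsm12. Cxcl1 was nearest to Ptpn3 (0.78), Ccl2 to Dubr (0.82), and Cx3cl1 to Atp1b2 (0.70).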

How the data were processed

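The authors aligned reads to mm10 with STAR 2.7.7 and deposited raw counts per gene (GENCODE M23), taking the second-strand column. The sample title of C151S CDDO-Me replicate 3 lacks a letter and was matched by group and number. The 4 summary lines were left out, which kept 65.9 to 80.6% of reads. CPM used TMM factors computed over all 30 libraries. Gene positions came from GENCODE M21 and promoters from RefSeq. Of 2 NF-kB letter forms tried on the promoters, the stricter is given. Genes were tested with edgeR 4.0.16 (filterByExpr, TMM, quasi-likelihood F-test) on the counts of 2 groups, or on all 30 libraries for response differences and the 6-group test, and p was adjusted over all genes tested. The alternatives were DESeq2 1.42.0, its size factors, no filter, no threshold on the fold change, 1 fit of all libraries, the replicate block, leaving out each library, and the Arntl set as a covariate or left out. Isolation dates, which the study adjusted for, were not used here. The members and lists were chosen with earlier results of these data known. All 10 members were named, with the called genes of each list (at most 4 per comparison) and its 3 most abundant, and the 3 nearest genes per member, some of which are not reported here. Replicates were separate mice. Same-numbered mice deviated together (r over 0.1) in 1 of 5 wild-type, 2 of 5 C151S, and 3 of 5 Nrf2-knockout pairs. In Nrf2-knockout mice the mean r was 0.18 for the same number and -0.04 for other numbers. The labels do not state that numbers pair mice, so the block was run only as an alternative. The fits were tested on simulated counts.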

Additional observations from a re-analysis of the deposited data

Results flagged for a closer look

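In 7 of the 60 sets of 5 mice (10 genes in 6 groups), the highest or lowest liver stood farther from its neighbour than Dixon's test allows. The test is set to flag about 1 of 20 sets of normally distributed values. It was applied here to CPM without a log scale, so the 7 of 60 cannot be set against that rate. Cxcl1 was 107 CPM in CDDO-Me C151S replicate 1, and the next liver had 39.5 CPM. Cxcl12 was 325 CPM in vehicle C151S replicate 4, and the next had 288 CPM. Cxcl13 was 3.12 CPM in vehicle wild-type replicate 3 with the next at 0.812 CPM, and 1.72 CPM in vehicle C151S replicate 4 with the next at 1.11 CPM. Ccl5 was 1.60 CPM in CDDO-Me wild-type replicate 5, and the next had 0.665 CPM. Ccl9 was 93.3 CPM in vehicle wild-type replicate 2, and the next had 63.8 CPM. Ccl2 was 0.0353 CPM (1 count) in vehicle wild-type replicate 5, the lowest of its group, and the next had 0.220 CPM. The response of Ccl24 to CDDO-Me differed between wild-type and Nrf2-knockout livers by 1.68 on the log2 scale in the edgeR test of that difference.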

How the results depend on the processing

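The counts of chemokine genes called, out of 9 or 10 tested, moved with the processing as follows, and the cause was not tested. With DESeq2 in place of edgeR, 1 gene was called for CDDO-Me in wild-type (Ccl24), 1 for CDDO-Me in Nrf2-knockout (Cxcl1), 1 between vehicle C151S and wild-type (Ccl5), 2 between vehicle Nrf2-knockout and wild-type (Ccl5 and Ccl24), 2 between CDDO-Me Nrf2-knockout and wild-type (Cxcl13 and Ccl24), and 3 between CDDO-Me C151S and wild-type livers (Cxcl1, Cxcl13, and Ccl24), where edgeR called 0, 0, 0, 1, 1, and 2. Between CDDO-Me Nrf2-knockout and wild-type, 3 were called without a filter (Cxcl1, Cxcl13, and Ccl24) and 2 in 1 fit of all 30 libraries (Cxcl1 and Ccl24). Without the low-Arntl libraries 2 were called between vehicle C151S and wild-type (Ccl2 and Ccl5) and 1 between CDDO-Me C151S and wild-type (Cxcl13). Ccl2 passed the filter on low counts there only through the 3 C151S livers left, so its call is no support for a difference. In the 6-group test Cxcl16 was called with the Arntl set as a covariate and Cxcl12 was not called without a filter. No direction of a called gene turned in any alternative run.

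With the replicate number as a block, 1 gene was called between vehicle C151S and wild-type (Ccl5), 0 between vehicle Nrf2-knockout and wild-type, and 0 between CDDO-Me Nrf2-knockout and wild-type livers. The mean correlation of same-numbered mice was -0.00, 0.02, and 0.18 for the wild-type, the C151S, and the Nrf2-knockout genotype, and 2, 2, and 5 of 10 mice were most like the mouse of their own number. The other counts kept to within 1.5 times under the block.

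Leaving out each library in turn gave 0 to 1 genes between vehicle C151S and wild-type, 0 to 2 between vehicle Nrf2-knockout and wild-type, 0 to 4 between CDDO-Me C151S and wild-type, 0 to 2 between CDDO-Me Nrf2-knockout and wild-type, 0 to 1 for the response difference of wild-type and Nrf2-knockout, and 2 to 5 in the 6-group test. The 1 gene between vehicle C151S and wild-type was Ccl2, called in 1 of the 6 such fits that tested it. Ccl2 was also called in 1 of 6 such fits between vehicle Nrf2-knockout and wild-type. It was too low to test in either comparison with all livers, so these Ccl2 calls are no support for a difference. Over all genes, DESeq2 called 120 where edgeR called 13 for CDDO-Me in C151S and 53 where edgeR called 0 in Nrf2-knockout livers. Depth limits Ccl2 most, with a median of 10 counts, followed by Cx3cl1 with 21 and Cxcl13 with 31.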
